A study of Pseudotsuga menziesii with 75 samples.

Results

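Histone transcripts were followed in Douglas-fir (Pseudotsuga menziesii) needles over the season. A contig of the needle transcriptome was counted as a core or linker histone transcript if its deposited description named histone H1, H2A, H2B, H3 or H4, and contigs whose description also named a transferase, kinase, chaperone or demethylase were left out. The rule found 211 of 59189 contigs and left out 4 others. The data are RNA-seq read counts of 75 libraries made from needles that had flushed in 2009 and were collected in 2010 from the sunlit crown of 25 adult trees. The labels call the time of day noon, and in the 62 libraries with a single clock time it was 12.8 to 15.7 h. The trees belonged to the provenances (seed origins) Cameron Lake (12 trees, 38 libraries) and Salmon Arm (13 trees, 37 libraries), and grew at the sites Schluchsee (13 trees, 37 libraries) and Wiesloch (12 trees, 38 libraries). No tree was treated. At Schluchsee the collections were on 27 May (10 libraries), 30 June (9), 28 July (10) and 15 September (8), and at Wiesloch on 12 May (10), 16 June (8), 14 July (10) and 8 September (10). Both sites had 1 collection day a month, with Wiesloch always ahead of Schluchsee, so that in each month the site and the day of collection cannot be told apart.

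Histones package nuclear DNA. The core histones H2A, H2B, H3 and H4 form the nucleosome, around which the DNA is wound, and the linker histone H1 binds where the DNA enters and leaves it. Most core histone protein of a dividing cell is made while the DNA is copied, whereas replacement variants such as H3.3 and H2A.Z are also put into chromatin of cells that no longer divide, which in a needle flushed a year before are most cells. Plant histone messages carry poly(A) tails and are therefore captured together with other messages. In Arabidopsis the variant H2A.W is bound to heterochromatin, H2A.X is phosphorylated at DNA breaks, H2A.Z sits in the first nucleosomes of genes, H3.1 is deposited during replication, and the linker histone H1.3 is induced by drought and shading.

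The 211 contigs comprised 30 of H1, 34 of H2A, 34 of H2B, 57 of H3 and 56 of H4. Their deposited best match in Arabidopsis was a histone locus for 208 contigs, which named 21 loci. Of the H1 contigs, 22 matched H1.3, 7 matched H1.2 and 1 matched H1.1. The H2A contigs were best matched by canonical H2A (9), H2A.W (7), H2A.X (11) and H2A.Z (6) loci, and 1 had no locus. The H3 contigs divided into 42 matches to H3.3 (the loci HTR4 and HTR8), 14 to H3.1 (HTR1) and 1 without a locus, 20 of the H2B contigs matched HTB9, and all 56 H4 contigs matched the same locus, H4-7. These names are best matches between distant species, and contigs of one locus may be near-identical copies or alleles among which reads can be split or shared, so counts were also summed per locus. The 21 loci and the 3 contigs without one are called the 24 histone loci below.

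Total counts ran between 18.54 and 47.51 M per library, where M is 10 to the power of 6, and histone contigs took 0.106% to 0.393% of them (median 0.207%). Levels are given as CPM, the scaled count of a contig for each M of library total. Contig lengths were not used here, so values are compared between libraries, and where a contig is said to have the highest level, this is its mean CPM, which also depends on its length. All 211 histone contigs passed the filter on low counts. Leaf markers were abundant: 5 of 9 listed photosynthesis loci had a contig, and their 27 contigs summed to between 11560 and 38670 CPM (median 22680). Some libraries stood apart from the others of their site and month in the summed level of a histone class, each time on the high side: these were Salmon Arm tree 9 at Schluchsee in May, Salmon Arm tree 14 at Wiesloch in May, Cameron Lake tree 12 at Wiesloch in June, Salmon Arm tree 15 at Schluchsee in July, Cameron Lake tree 9 at Wiesloch in September and Cameron Lake tree 15 at Schluchsee in September. In whole needles, fewer cells of a type and less RNA per cell cannot be told apart.

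H4 and H1 transcripts stood lower in July than in June at both sites, as the tests below show. H4 summed over its 56 contigs had lowest, median and highest library values at Schluchsee of 125, 206 and 331 CPM in May, 176, 259 and 420 CPM in June, 75.2, 106 and 204 CPM in July, and 86.2, 121 and 188 CPM in September. At Wiesloch the same values were 128, 166 and 407 CPM in May, 154, 235 and 369 CPM in June, 62.7, 143 and 206 CPM in July, and 82.8, 117 and 258 CPM in September. At Schluchsee 9 of the 10 July libraries lay below every June library, and at Wiesloch 7 of the 10 did. Of the 13 trees sampled in both months, 12 had a lower H4 sum in July than in June. The linker histones followed the same course at Schluchsee: the sum of the 30 H1 contigs was 500, 760 and 1080 CPM in May, 780, 953 and 1460 CPM in June, 319, 434 and 620 CPM in July, and 414, 453 and 596 CPM in September. All 10 July libraries there lay below all June libraries. At Wiesloch H1 reached 435, 569 and 1174 CPM in May, 554, 1028 and 1494 CPM in June, 432, 579 and 927 CPM in July, and 170, 383 and 555 CPM in September, so that its lowest month there was September. The sum of the 34 H2A contigs was 147, 184 and 265 CPM in July at Schluchsee, against 226, 283 and 408 CPM in June, with 9 of 10 July libraries below all June libraries. At Wiesloch it was 196, 309 and 408 CPM in July, against 217, 295 and 454 CPM in June. The 34 H2B contigs summed to 167, 208 and 345 CPM in July at Schluchsee, against 202, 263 and 336 CPM in June, and to 160, 257 and 359 CPM in July at Wiesloch, against 198, 252 and 372 CPM in June. The H2A and H2B sums of the months thus overlapped over nearly their whole range at Wiesloch.

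**Figure D1:**
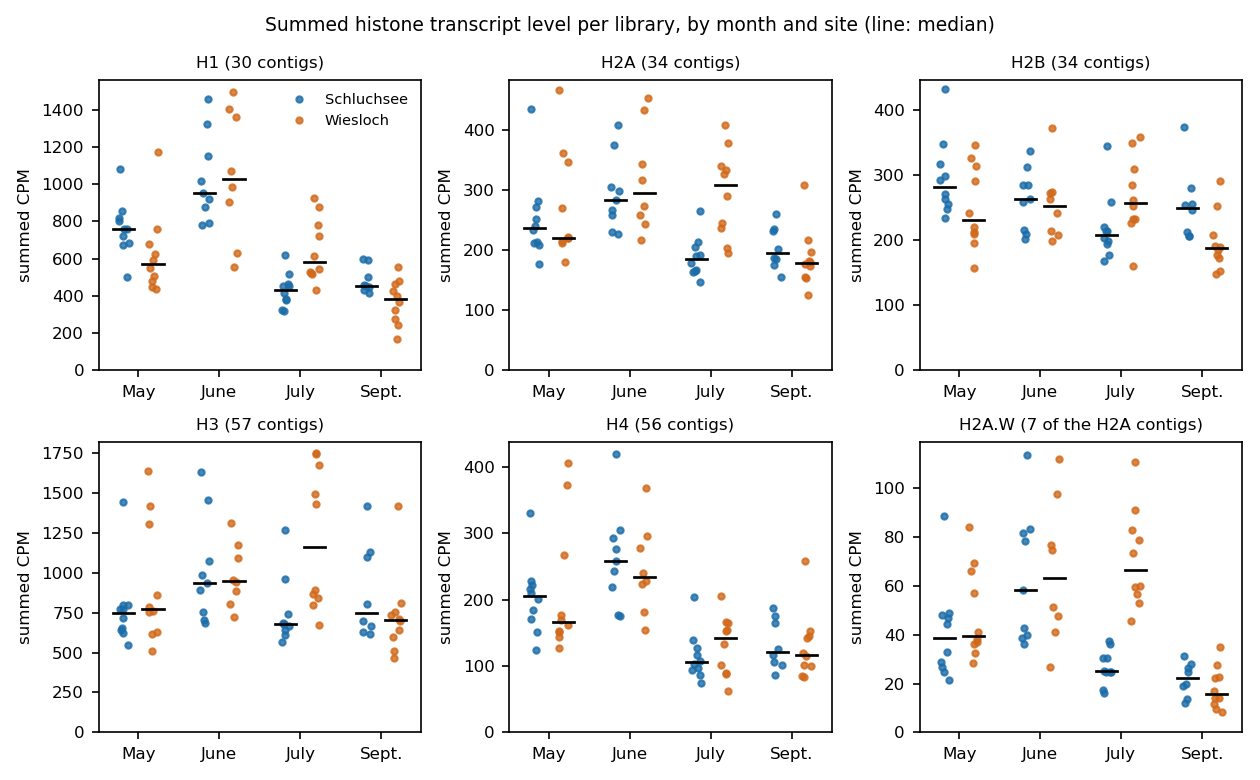
Summed CPM of the H1, H2A, H2B, H3 and H4 contigs and of the H2A.W contigs alone (vertical axes, CPM) in each of the 75 libraries by month (horizontal axis), with Schluchsee left of Wiesloch and a line at the median of each group. The H1 and H4 sums stand lower in July than in June at both sites, whereas the H2A.W sum does so at Schluchsee alone and stands at 45.6 CPM or more in all 10 July libraries of Wiesloch.

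In July against June most of the histone contigs that passed were lower. Adjusted p-values come from edgeR's quasi-likelihood test, with the Benjamini-Hochberg correction run across the 59177 contigs that entered the fit, and a contig passed where the value was under 0.05. Over both sites 85 of the 211 histone contigs (40.3%) passed, 1 higher and 84 lower in July, beside 13.0% of all contigs tested (6.03% higher, 6.99% lower). The median log2 fold change of the histone contigs was -0.55, against 0.01 for all contigs. On the counts summed per locus, 10 of the 24 histone loci were lower and none was higher, beside 13.9% of all loci and locus-free contigs. Within the sites, 70 histone contigs passed at Wiesloch (10 higher and 60 lower, beside 25.1% of all contigs, 12.3% higher and 12.8% lower) and 75 at Schluchsee (0 higher and 75 lower, beside 17.0%, 8.88% higher and 8.16% lower). Of these, 37 were lower at both sites, which is 61.7% of the contigs lower at Wiesloch and 49.3% of those lower at Schluchsee. At Wiesloch 115 contigs passed with the tree as a block (beside 35.8% of all contigs). The clock time of sampling could be a covariate only for the 62 libraries that have one, among them 3 of the 8 of June at Wiesloch. There 33 contigs passed at Wiesloch with the covariate (beside 7.67%) and 31 in the same libraries without it (beside 7.65%). Without the 6 libraries that stood apart, 83 contigs passed over both sites, 67 at Wiesloch and 90 at Schluchsee.

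H4 had the largest share of lower contigs among the 5 classes. Of its 56 contigs 49 were lower in July than in June and none was higher, all 56 had a log2 fold change below 0 at each site, and the median was -1.30. All 56 matched 1 locus and reads may be split or shared among them, so they do not count as separate results. The sum over the H4 locus fell by 1.06 on the log2 scale (SE 0.15, adjusted p 5.69e-07), by 1.22 at Schluchsee (SE 0.21, adjusted p 1.82e-05) and by 0.90 at Wiesloch (SE 0.22, adjusted p 0.0011). GAEK01012063.1, among the 3 H4 contigs with the highest level, had 1.53, 3.78 and 10.7 CPM (lowest, median, highest) in July at Schluchsee, against 6.43, 25.2 and 39.4 CPM in June. In 7 of the 10 July libraries of Schluchsee it lay below every June library there. It fell by 2.55 on the log2 scale at Schluchsee (SE 0.38, adjusted p 6.47e-07) and by 1.69 over both sites (adjusted p 3.31e-06). Some of the H4 contigs passed at 1 site. GAEK01008611.1 had 0.0407, 0.117 and 0.294 CPM in July at Wiesloch, against 0.589, 1.05 and 1.81 CPM in June, without overlap (log2 fold change -3.02, SE 0.33, adjusted p 1.21e-10). At Schluchsee the same contig had 0.203, 0.567 and 1.7 CPM in July, against 0.387, 0.709 and 1.19 CPM in June (log2 fold change -0.02). isotig26621 had 0.277, 0.433 and 0.875 CPM in July at Wiesloch, against 2.61, 3.83 and 5.54 CPM in June (log2 fold change -2.92, SE 0.34, adjusted p 7.34e-10). isotig01932 and isotig01943 fell at Schluchsee by 2.71 (SE 0.49, adjusted p 3.85e-05) and 2.59 (SE 0.39, adjusted p 7.38e-07) on the log2 scale, and did not pass at Wiesloch. GAEK01019484.1 and GAEK01023729.1, the other H4 contigs with the highest levels, fell by 0.83 (SE 0.20, adjusted p 0.00204) and 0.97 (SE 0.16, adjusted p 1.16e-05) over both sites. In the fit over both sites the H4 contigs with the greatest change were isotig72616 (-2.56), GAEK01034457.1 (-2.06) and GAEK01014604.1 (-1.98), of which isotig72616 was at the lowest values of the table in 16 libraries.

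Linker H1 fell with H4. Of the 22 contigs matched to the drought-induced type H1.3, 14 were lower and 1 was higher in July than in June over both sites, and of the 8 matched to H1.1 or H1.2, 5 were lower. At Wiesloch 11 H1.3 contigs were lower and 2 higher, beside 12.8% and 12.3% of all contigs. At Schluchsee 13 were lower and 0 higher, beside 8.16% and 8.88%. Among the H1.3 contigs 1 passed in opposite directions at the sites. Of the H1.1 and H1.2 contigs 5 were lower at Wiesloch and 3 at Schluchsee, and 0 were higher. GAEK01030529.1, the H1.3 contig with the highest level, had 69.8, 98.3 and 161 CPM in July at Schluchsee, against 183, 234 and 339 CPM in June. At Wiesloch it had 105, 153 and 238 CPM in July, against 140, 252 and 348 CPM in June. The groups did not overlap at Schluchsee and did at Wiesloch, and over both sites the contig fell by 0.90 (SE 0.13, adjusted p 3.96e-07). The other H1.3 contigs with high levels, isotig10952 and isotig40603, fell by 0.87 and 1.1. Summed per locus, H1.3 fell by 0.95 (SE 0.13, adjusted p 1.92e-07) and H1.2 by 1.32 (SE 0.15, adjusted p 2.32e-09). The H1.3 contig that was higher over both sites, GAEK01021175.1, rose by 0.33 (SE 0.09, adjusted p 0.00583) and was singled out here after its values were seen.

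Among the H2A contigs the variants had different counts. Of the 34 H2A contigs 9 were lower in July than in June and none was higher over both sites, beside 6.99% and 6.03% of all contigs. Within Wiesloch 2 were higher, both of H2A.X, and 2 lower (beside 12.3% and 12.8%). At Schluchsee 13 were lower and 0 higher (beside 8.16% and 8.88%). H2A.W, the heterochromatin variant, contributed 4 of the 9 that were lower over both sites, and its 7 contigs split between the sites. At Schluchsee all 7 were lower in July (median log2 fold change -1.39), and at Wiesloch none of the 7 passed in either direction (median -0.11; in edgeR 1 had an unadjusted p under 0.05, and DESeq2 called 0). Their summed level was 16.0, 25.0 and 37.6 CPM in July at Schluchsee, against 36.0, 58.4 and 114 CPM in June, with 8 of 10 July libraries below all June libraries. At Wiesloch it was 45.6, 66.6 and 111 CPM in July, against 26.7, 63.1 and 112 CPM in June, with full overlap. Among the H2A.X contigs 3 of 11 were lower, among them isotig29155 (matched to HTA5), which fell by 0.65 (SE 0.17, adjusted p 0.0039), and among the canonical H2A contigs 1 of 9 was lower. Of the 6 H2A.Z contigs 0 passed over both sites in edgeR, 0 had an unadjusted p under 0.05, and DESeq2 called 0. At Schluchsee 2 of the 6 were lower in edgeR and in DESeq2, and at Wiesloch 0 passed in either, with 3 at an unadjusted p under 0.05 in edgeR. GAEK01019624.1, the one with the highest level, had 14.6, 23.2 and 31.4 CPM in July at Schluchsee, against 20.1, 26.9 and 44.5 CPM in June, and 13.7, 28.6 and 44.7 CPM in July at Wiesloch, against 16.1, 20.6 and 24.4 CPM in June.

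Over both sites 2 H2B contigs and 0 H3.3 contigs passed in July against June, beside 13.0% of all contigs. Of the 34 H2B contigs 2 were lower (beside 6.99% of all contigs), with a median log2 fold change of -0.24. At Schluchsee 4 were lower and none was higher (beside 8.16% and 8.88% of all contigs). At Wiesloch 2 were higher and 3 lower (beside 12.3% and 12.8%). The H2B contigs with the highest levels, isotig44593 and GAEK01022705.1 (both matched to HTB9) and isotig14641 (HTB2), were not among them. Of the 42 H3.3 contigs 0 passed over both sites in edgeR (median 0.04), 2 had an unadjusted p under 0.05, and DESeq2 called 0. Within the sites, 2 H3.3 contigs were lower and none was higher at Schluchsee, and 3 were higher and 1 lower at Wiesloch, beside the same shares. isotig01474 (matched to HTR4), the H3 contig with the highest level, had 65.1, 90.2 and 180 CPM in July at Schluchsee, against 75.9, 113 and 318 CPM in June, and 60.4, 201 and 333 CPM in July at Wiesloch, against 97.5, 122 and 215 CPM in June. Of the 14 contigs of the replication-coupled type H3.1, 5 were lower over both sites. The H3.1 locus sum fell by 0.49 (SE 0.16, adjusted p 0.0278). Whether the classes differed from each other in this step was not tested.

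**Figure D2:**
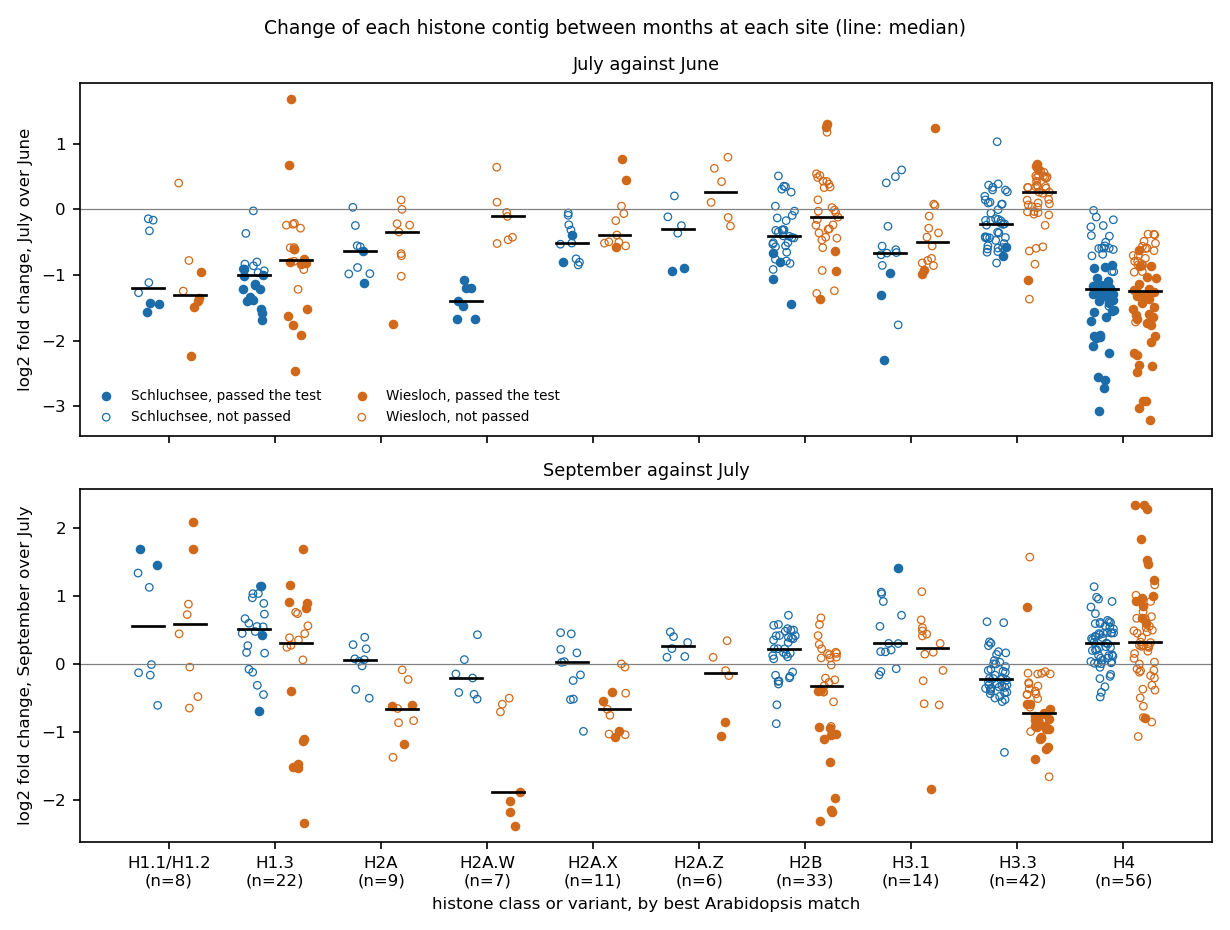
Log2 fold change (vertical axis) of each histone contig, July over June in the upper panel and September over July in the lower, grouped by histone class or variant of the best Arabidopsis match (horizontal axis), with Schluchsee left of Wiesloch, filled points past the threshold and a line at the median. H4 contigs lie below 0 at both sites in the upper panel. H2A.W contigs lie below -1 at Schluchsee in July, and 4 of them near -2 at Wiesloch in September.

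Histone contigs passed in both directions in June against May. Over both sites 29 of the 211 (13.7%) passed, 23 higher and 6 lower, beside 19.0% of all contigs tested (9.57% higher, 9.45% lower). Of the 23 that were higher, 10 were linker histones: 9 of the 22 H1.3 contigs were higher and none was lower, and the H1.3 locus sum rose by 0.61 (SE 0.13, adjusted p 0.000285). GAEK01029757.1, an H1.3 contig, had 58.6, 160 and 227 CPM in June at Wiesloch, against 45.7, 63.7 and 166 CPM in May (log2 fold change 1.04, SE 0.24, adjusted p 0.00295). Its June libraries overlapped with those of May. H2A.W added 4 of 7 contigs and H4 added 6 of 56, whereas H3.1 had 2 of 14 lower and H2B 3 of 34 lower. GAEK01010808.1, an H3.1 contig, had 0.247, 0.861 and 2.24 CPM in June at Schluchsee, against 0.701, 2.42 and 7.16 CPM in May, and over both sites it fell by 1.1 on the log2 scale (SE 0.36, adjusted p 0.0229). In the 62 libraries with a clock time it did not pass, at -0.68 with the clock covariate (adjusted p 0.465) and at -0.68 without it (adjusted p 0.468). By site, 9 contigs passed at Wiesloch, all higher (beside 7.77% of all contigs, 3.95% higher and 3.82% lower), and 14 at Schluchsee, 6 higher and 8 lower (beside 14.1%, 7.11% higher and 6.95% lower). With the tree block the counts were 70 over both sites (beside 31.8% of all contigs), 41 at Wiesloch (beside 17.3%) and 57 at Schluchsee (beside 27.0%). In the 62 libraries with a clock time they were 19 over both sites (beside 8.84%), 4 at Wiesloch (beside 1.19%) and 7 at Schluchsee (beside 8.12%) with the clock covariate, and 17, 3 and 9 without it (beside 8.71%, 1.18% and 8.35%).

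In September contigs of different classes passed in different directions. September is compared here with July, whose libraries also enter the comparison with June, so values of the 2 steps are given side by side and their likeness is not counted. In September 64 of the 211 contigs (30.3%) passed, 26 higher and 38 lower, beside 32.4% of all contigs (15.3% higher, 17.1% lower). H4 had 10 contigs higher and none lower (median 0.35), and GAEK01014604.1 among them had 0.381, 0.999 and 7.03 CPM in September at Wiesloch, against 0.116, 0.303 and 0.873 CPM in July (log2 fold change 2.33, SE 0.45, adjusted p 1.91e-05). The H4 locus sum did not pass. Of the 8 contigs matched to H1.1 or H1.2, 4 were higher, among them GAEK01005506.1, which rose by 1.71 (SE 0.41, adjusted p 0.000664) and isotig112453, which rose by 1.68 (SE 0.35, adjusted p 0.000115). The H1.3 contigs moved in both directions, with 10 higher and 6 lower. The lower ones included the 3 with the highest levels, GAEK01030529.1 (-0.49), isotig10952 (-0.48) and isotig40603 (-0.80), and the locus sum fell by 0.34 (SE 0.13, adjusted p 0.0385).

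Contigs of H3.3, H2A and H2B were among those lower in September than in July at Wiesloch. At Wiesloch 78 contigs passed, 21 higher and 57 lower (beside 42.0% of all contigs, 20.2% higher and 21.7% lower), and at Schluchsee 6 passed, 5 higher and 1 lower (beside 7.67%, 3.76% higher and 3.91% lower), with 17 under the tree block (beside 13.5%). H3.3 had 18 of 42 contigs lower over both sites and 22 lower at Wiesloch, and the locus sums of HTR4 and HTR8 fell at Wiesloch by 0.78 (SE 0.23, adjusted p 0.00386) and 0.65 (SE 0.22, adjusted p 0.0118). Of the 18 contigs, 17 carried neighbouring assembly numbers within a run of 21 H3.3 contigs, among which reads may be split or shared. This run was picked out after the values were seen. Lower at Wiesloch were also 12 of the 34 H2B contigs and 13 of the 34 H2A contigs, and 0 of either were higher. The 13 were 4 of 7 H2A.W, 4 of 11 H2A.X, 3 of 9 canonical H2A and 2 of 6 H2A.Z contigs. At Schluchsee 0 H2A and 0 H2B contigs passed. At Wiesloch the H2A.W sum was 8.4, 15.6 and 34.8 CPM in September, against 45.6, 66.6 and 111 CPM in July, without overlap, and was lower in all 8 trees sampled in both months. GAEK01006878.1, the H2A.W contig with the highest level (matched to HTA6), had 2.08, 6.08 and 11.7 CPM in September at Wiesloch, against 23.1, 30.6 and 55.0 CPM in July (log2 fold change -2.38, SE 0.28, adjusted p 2.77e-10). At Schluchsee it had 4.70, 10.5 and 18.3 CPM in September, against 7.47, 14.7 and 20.6 CPM in July. The H2A.W loci HTA6 and HTA12 fell at Wiesloch by 2.21 (SE 0.26, adjusted p 2.3e-10) and 2.06 (SE 0.34, adjusted p 1.47e-06).

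The comparison of the sites asked whether the same provenances carried other histone transcript levels where they grew at Schluchsee than at Wiesloch. In May, June and September few contigs differed. In May 3 passed, 2 higher and 1 lower at Schluchsee (beside 7.47% of all contigs, 2.89% higher and 4.58% lower), in September 12 passed, 11 higher and 1 lower (beside 10.2%, 4.83% higher and 5.34% lower), and in June 0 of 211 passed in edgeR, where 10 had an unadjusted p under 0.05 and DESeq2 called 3 (beside 5.88% of all contigs, 2.89% higher and 2.98% lower). In July 76 passed, 18 higher and 58 lower at Schluchsee. That is 36.0% of the histone contigs, beside 46.1% of all contigs (22.9% higher, 23.3% lower). By locus, 2 were higher and 13 lower at Schluchsee in July, beside 46.5%. The lower loci took in the 3 H2A.W loci, both H3.3 loci and H1.3, which were lower by 0.58 (SE 0.18, adjusted p 0.00553) for H1.3 and by 1.45 (SE 0.25, adjusted p 3.43e-06) for HTA6. The summed H3 contigs had 569, 680 and 1265 CPM at Schluchsee in July, against 674, 1160 and 1752 CPM at Wiesloch.

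Single contigs differed without overlap in July. GAEK01030709.1, an H2B contig matched to HTB9, had 3.60, 5.35 and 7.54 CPM at Schluchsee, against 14.8, 21.4 and 36.3 CPM at Wiesloch (log2 fold change -2.06, SE 0.22, adjusted p 1.44e-11). At Wiesloch all 10 September libraries of this contig were below all July libraries, and 9 of the 10 July libraries were above all June libraries. GAEK01030569.1, an H1.3 contig of low level, had 0.106, 0.142 and 0.332 CPM at Schluchsee in July, against 0.731, 1.94 and 4.94 CPM at Wiesloch (log2 fold change -3.51, SE 0.42, adjusted p 2.38e-10). isotig39626, an H2A.X contig matched to HTA3, had 2.83, 3.60 and 4.51 CPM at Schluchsee, against 5.72, 8.48 and 11.4 CPM at Wiesloch (log2 fold change -1.24, SE 0.14, adjusted p 1.59e-11). The H4 contig isotig26621 stood the other way round, at 1.26, 1.99 and 5.77 CPM at Schluchsee, against 0.277, 0.433 and 0.875 CPM at Wiesloch (log2 fold change 2.22, SE 0.33, adjusted p 6.19e-08). Within H4, contigs differed between the sites in both directions. Of the 56 H4 contigs 9 were higher and 7 lower at Schluchsee in July, beside 22.9% and 23.3% of all contigs.

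The difference between the seasonal courses of the sites was tested as such, by testing 3 interaction contrasts jointly. It passed for 47 histone contigs (22.3%), beside 34.9% of all contigs, and for 7 of the 24 histone loci, beside 35.9% of all loci and locus-free contigs. In the 62 libraries with a clock time it passed for 23 histone contigs with the clock covariate (beside 22.5%) and for 26 without it (beside 24.4%). By class the 47 contigs of the fit of all 75 libraries were 13 of the 34 H2B contigs, 9 of 34 H2A, 9 of 56 H4, 8 of 30 H1 (all 8 matched to H1.3) and 8 of 57 H3. H2A.W accounted for 4 of the 9 H2A contigs, and the loci that passed were HTA6 (adjusted p 0.000201), HTA12, H1.3 (adjusted p 0.00358), HTB1, HTB9, HTA1 and HTA2. The smallest adjusted p-values of single contigs belonged to GAEK01030709.1 (2.09e-10), GAEK01008611.1 (2.26e-07) and isotig39626 (1.69e-06). For a difference of the course between provenances 0 of 211 contigs passed in edgeR, 4 had an unadjusted p under 0.05, and DESeq2 called 0, beside 0.00338% of all contigs.

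**Figure D3:**
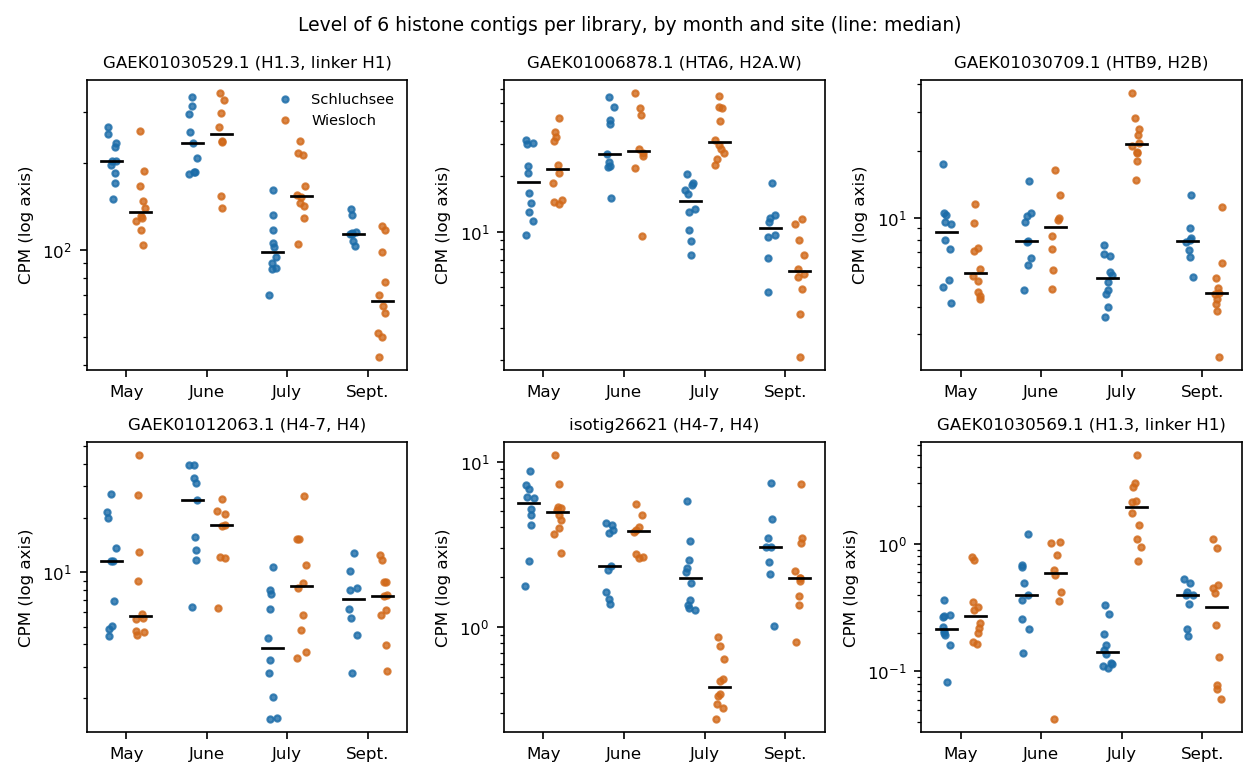
CPM on a log axis (vertical) of 6 histone contigs in each library by month (horizontal axis), Schluchsee left of Wiesloch, with a line at the median. In the July libraries of Wiesloch, GAEK01030709.1 and GAEK01030569.1 stand above, and isotig26621 below, all July libraries of Schluchsee.

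Summed over the months, with the tree as the unit (25 trees), 15 histone contigs passed for the site, of which 6 were higher and 9 were lower at Schluchsee, beside 17.0% of all contigs (8.87% higher, 8.11% lower). isotig102546, the contig matched to H1.1, had 0.369, 0.762 and 1.53 CPM in the trees at Schluchsee, against 0.0498, 0.298 and 0.763 CPM at Wiesloch (log2 fold change 1.5, SE 0.35, adjusted p 0.00576). In July alone the difference was 1.83 (SE 0.46, adjusted p 0.000802). GAEK01031053.1, matched to H1.2, was lower at Schluchsee, with 0.0560, 0.155 and 0.375 CPM, against 0.198, 0.493 and 0.893 CPM at Wiesloch (log2 fold change -1.51, SE 0.31, adjusted p 0.00231). Both are weakly counted, and GAEK01031053.1 was at the lowest values of the table in 21 libraries.

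The share of histone contigs that differed between the provenances was near that of all contigs. In the histone contig with the largest fold change 5 Salmon Arm trees stood far above the other trees. Over the trees 20 contigs passed, 3 higher and 17 lower in Cameron Lake, which is 9.48% beside 10.4% of all contigs (4.34% higher, 6.10% lower). DESeq2 called 38. The count was 12 without Cameron Lake tree 13 at Wiesloch or without Salmon Arm tree 15 there, 13 without Salmon Arm tree 12 there, and 39 without Salmon Arm tree 9 there. These counts have no share of all contigs beside them and show only how the number of histone contigs moved. The 3 higher ones were H2B contigs. The 17 lower ones comprised 7 H3.3, 6 H4, 2 H2A, 1 H2B and 1 H3.1 contigs, and no H1 contig was among them. isotig44643, matched to the H2A.X locus HTA5, had 0.250, 0.488 and 1.12 CPM in Cameron Lake trees, against 0.329, 1.88 and 57.5 CPM in Salmon Arm trees (log2 fold change -4.82, SE 1.05, adjusted p 0.00762). It exceeded 10 CPM in 0 of 12 Cameron Lake trees and in 5 of 13 Salmon Arm trees, and 6 of the 13 Salmon Arm trees lay within the Cameron Lake range. isotig90651 (H3.3) and isotig95956 (H4) were lower in Cameron Lake, at log2 fold changes of -3.55 (SE 0.52, adjusted p 0.000427) and -3.49 (SE 0.79, adjusted p 0.00974), and were at the lowest values of the table in 50 and 60 of the 75 libraries. Without Salmon Arm tree 15 at Wiesloch, isotig95956 did not pass (-2.26, adjusted p 0.0582). isotig01947 (H4) had 0.0274, 0.227 and 1.2 CPM in Cameron Lake trees, against 0.238, 1.0 and 36.1 CPM in Salmon Arm trees. The difference was -3.22 on the log2 scale (SE 0.67, adjusted p 0.006). The strongest difference in the other direction, named here after its values were seen, was the H2B contig isotig44994, with 5.24, 7.96 and 16.9 CPM in Cameron Lake trees, against 0.589, 1.41 and 9.95 CPM in Salmon Arm trees (log2 fold change 2.45, SE 0.31, adjusted p 0.000106). A contig that differs between provenances may be an allele of a locus or a change in level, and the counts cannot tell these apart. isotig01474, the H3.3 contig with the highest level, was lower in Cameron Lake by 0.66 (SE 0.18, adjusted p 0.0247), with 65.7, 88.1 and 151 CPM in Cameron Lake trees, against 81.6, 140 and 310 CPM in Salmon Arm trees. Whether the provenance difference changed with the site was tested in the same model, where 0 of 211 contigs passed in edgeR, 14 had an unadjusted p under 0.05, and DESeq2 called 0, beside 0% of all contigs.

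**Figure D4:**
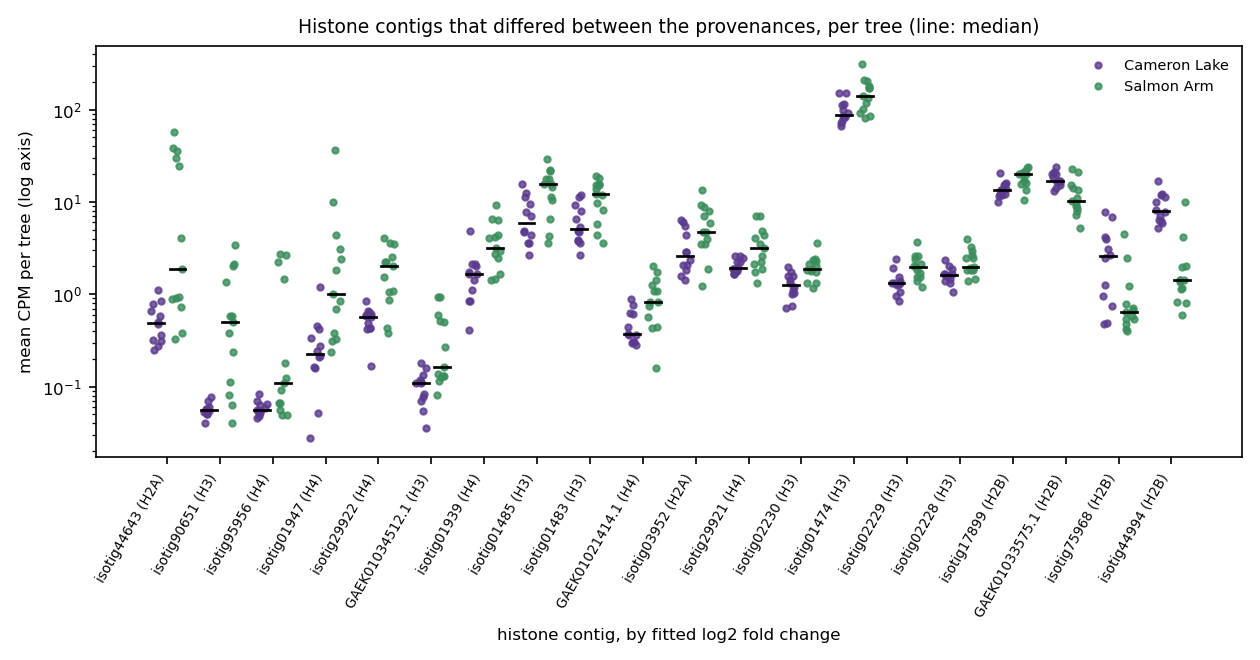
Mean CPM per tree on a log axis (vertical) for the 20 histone contigs that passed between the provenances, in the order of their log2 fold change (horizontal axis), Cameron Lake (12 trees) left of Salmon Arm (13 trees), with a line at the median. In isotig44643, 5 Salmon Arm trees lie above 10 CPM and 6 lie within the range of Cameron Lake.

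Genes that handle histones passed in both directions. Of 15 listed histone chaperones 13 had a contig. In July against June 0 of the 13 passed over both sites in edgeR (2 had an unadjusted p under 0.05), beside 13.0% of all contigs. At Schluchsee 5 were higher and 1 lower (beside 17.0%), and at Wiesloch 2 were higher and 3 lower (beside 25.1%). FAS2, a subunit of the assembly factor that brings H3 and H4 to replicated DNA, rose by 0.79 in July at Schluchsee (SE 0.15, adjusted p 4.07e-05) and fell by 0.88 at Wiesloch (SE 0.15, adjusted p 4.89e-06). NAP1;1, a chaperone of H2A and H2B, rose by 0.49 (SE 0.17, adjusted p 0.0355) at Schluchsee and fell by 0.80 (SE 0.17, adjusted p 0.000297) at Wiesloch. SPT16, which opens nucleosomes ahead of RNA polymerase, had the opposite signs, with a fall of 0.38 (SE 0.11, adjusted p 0.00815) at Schluchsee and a rise of 0.56 (SE 0.11, adjusted p 6.94e-05) at Wiesloch. All 9 listed genes of H2A.Z exchange and chromatin remodelling had a contig, and in July against June 1 of them passed over both sites (beside 13.0%), INO80, lower by 0.35 (SE 0.08, adjusted p 0.00185). At Schluchsee 1 was higher and 1 lower, and at Wiesloch 0 passed, with 2 at an unadjusted p under 0.05.

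Of 20 listed genes of DNA replication 13 had a contig, with 1 higher and 2 lower in July than in June, beside 13.0% of all contigs. TSO2, a subunit of the enzyme that makes DNA precursors, rose by 0.31 (SE 0.09, adjusted p 0.0105), MCM2 of the replicative helicase fell by 0.57 (SE 0.18, adjusted p 0.0239), and E2FB, a transcription factor of S phase entry, fell by 0.46 (SE 0.07, adjusted p 1.65e-06). By site, MCM2 and E2FB were lower in July at Wiesloch, by 1.47 (SE 0.26, adjusted p 1.34e-05) and 1.06 (SE 0.10, adjusted p 4.94e-13), and did not pass at Schluchsee (log2 fold changes 0.32 and 0.15). The summed level of all 13 replication genes overlapped between the months, with 130 to 167 CPM in July at Schluchsee, against 138 to 182 CPM in June, and 130 to 181 CPM in July at Wiesloch, against 141 to 166 CPM in June.

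Markers of other cell types were read beside the histones. Of 7 listed genes of dividing cells 3 had a contig. Their sum was 13.1 to 31.3 CPM in July at Schluchsee, against 15.2 to 21.3 CPM in June, and 31.3 to 46.3 CPM in July at Wiesloch, against 16.2 to 28.9 CPM in June, so that at Wiesloch all July libraries lay above all June libraries. Of these 3 genes 1 passed in July over both sites (beside 13.0% of all contigs), and the median log2 fold change was 0.09. The gene that passed was AUR1, a mitotic kinase that phosphorylates H3, which rose by 0.53 (SE 0.09, adjusted p 2.99e-05). By site, 1 of the 3 was higher at Wiesloch (median 0.65, beside 25.1% passing). At Schluchsee 1 was higher (median -0.02, beside 17.0%). Of 6 listed xylem and cambium genes 5 had a contig and 1 passed in July over both sites (beside 13.0% of all contigs). This was the wall cellulose synthase CESA4, lower by 3.44 (SE 0.42, adjusted p 1.72e-08) and at the lowest values of the table in 41 libraries. By site, 1 was higher and 1 lower at Wiesloch (beside 25.1%), and 0 were higher and 2 lower at Schluchsee (beside 17.0%). The sum over this list was 34.6 to 65.3 CPM in July at Schluchsee, against 38.4 to 91.9 CPM in June. In July at Wiesloch it was 47.3 to 67.2 CPM, against 32.8 to 76.6 CPM in June. Of 5 listed guard cell genes 3 had a contig, and their sum was 88.8 to 174 CPM in July at Schluchsee, against 96.5 to 194 CPM in June, and 92.5 to 150 CPM in July at Wiesloch, against 97.7 to 177 CPM in June. The anion channel gene SLAC1 among them fell by 0.80 (SE 0.21, adjusted p 0.00497) over both sites and by 2.19 (SE 0.30, adjusted p 7.49e-08) at Wiesloch, while at Schluchsee its log2 fold change of 0.58 did not pass (adjusted p 0.179). Of the 3 guard cell genes SLAC1 alone passed over both sites (beside 13.0% of all contigs). At Wiesloch another guard cell gene was higher in July (beside 25.1% passing), and at Schluchsee 1 other was lower (beside 17.0%). The part of these cell types in the histone values was not tested.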

How the data were processed

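RNA-seq read counts of 75 needle libraries were analysed. The deposited table holds whole-number counts per transcriptome contig, with a description and a best Arabidopsis match. Per the labels' protocols, RNA was extracted with CTAB, treated with DNase and prepared with the TruSeq RNA kit v2. The submitters' processing notes name Bowtie2 2.1, CASAVA 1.7, HTSeq and TAIR10; how each was used is not given in the sources used here. Of the table's lines, 29654 hold more cells than the header, so the deposited counts were taken from the 75 rightmost cells, and by header position some columns hold other content. The table holds no 0: the lowest frequent value was 2 in 72 libraries and higher in 3, and its origin is not given in the sources used here, so fold changes of contigs at these lowest values depend on them. Whether the counting used strand is not given either.

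Total counts were 18.54 to 47.51 M per library. Counts were scaled by TMM (factors 0.897 to 1.105), and filterByExpr removed 12 contigs. edgeR 4.0.16 (R 4.3.3) fitted 1 quasi-likelihood model with a mean for each provenance, site and month over the 75 libraries, with Benjamini-Hochberg adjustment over 59177 contigs and a threshold of 0.05. SE is the absolute log2 fold change divided by the root of F. Comparisons over both sites average the provenances and sites equally. Provenance and site were tested over 25 trees on counts summed per tree (58999 contigs), with the share of each month as covariates. The locus sums (35782 features) were fitted as the contigs were.

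Trees were sampled repeatedly and are identified by the labels: 89 pairs of libraries from the same tree had a mean correlation of deviations of 0.599, against -0.021 for different trees, so the tree pairs the samples and was used as a block in an alternative. The highest correlation between 2 libraries was 0.982. Alternatives were DESeq2 1.42.0, its size factors, no filter, lowest values set to 0, the block, the clock time (62 libraries, also fitted without it), and each tree left out in turn.

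The histone contigs, gene lists and tests were chosen with earlier results of these data known. Contigs were named by rule: the 3 with the highest mean CPM in each class, and in each comparison up to 3 with the largest fold change past the threshold (for tests of several contrasts, the smallest p); other names are marked in the text. From the lists, up to 3 genes with the largest change were named by the same rule, each locus standing for its contig with the highest mean count.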

Additional observations from a re-analysis of the deposited data

Results flagged for a closer look

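A library was singled out where the gap between the highest or lowest value and its nearest neighbour, among the libraries of one site and month, exceeded Dixon's 95% critical value for the size of the group. Of 160 groups of values tested (the 5 class sums and the 3 contigs with the highest level in each class, at 2 sites and in 4 months), 30 had such a library. The critical value is set for about 1 in 20 among independent groups of normally distributed values. The class sums contain the contigs that were also tested, and the same libraries enter many groups. The 30 can therefore not be set against that rate.

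Salmon Arm tree 9 at Schluchsee in May stood above the other libraries of its group in the sums of H2A (436 CPM), H3 (1440 CPM) and H4 (331 CPM), and in GAEK01019624.1 (H2A.Z, 47.6 CPM), isotig01474 (H3.3, 237 CPM), isotig01476 (H3.3, 159 CPM) and isotig07234 (H3.3, 191 CPM). Cameron Lake tree 9 at Wiesloch in September did so in the sums of H2A (308 CPM), H3 (1420 CPM) and H4 (258 CPM), and in isotig29155 (H2A.X, 92.4 CPM), GAEK01019624.1 (42.3 CPM), isotig07234 (187 CPM) and GAEK01023729.1 (H4, 23.5 CPM). Salmon Arm tree 15 at Schluchsee in July did so in the sums of H2B (345 CPM) and H4 (204 CPM), and in isotig14641 (H2B, 43.0 CPM), isotig01474 (180 CPM) and isotig01476 (145 CPM).

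Cameron Lake tree 12 at Wiesloch in June stood high in the H2B sum (372 CPM), isotig01476 (165 CPM) and GAEK01019484.1 (H4, 52.5 CPM). Cameron Lake tree 15 at Schluchsee in September stood high in the H2B sum (374 CPM) and GAEK01022705.1 (H2B, 44.6 CPM). Salmon Arm tree 14 at Wiesloch in May stood high in the H1 sum (1170 CPM) and isotig40603 (H1.3, 244 CPM). Single values apart were isotig01474 in Salmon Arm tree 12 at Wiesloch in June (215 CPM), GAEK01023729.1 in Salmon Arm tree 16 at Schluchsee in June (30.7 CPM), GAEK01012063.1 (H4) in Salmon Arm tree 14 at Wiesloch in July (26.4 CPM) and, as the only low value, isotig10952 (H1.3) in Salmon Arm tree 16 at Schluchsee in May (125 CPM).

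By the joint test of the interaction, 47 histone contigs had a course over the months that differed between Schluchsee and Wiesloch, which is 22.3% of them, beside 34.9% of all contigs.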

How the results depend on the processing

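The count of histone contigs past the threshold in July against June was 85, and 60 to 119 under the alternatives run. With the replicate block (tree) the counts were higher, at 70 for June against May over both sites, 41 at Wiesloch and 57 at Schluchsee, 115 for July against June at Wiesloch, and 17 for September against July at Schluchsee; it moved no other count over 1.5 times. In the 62 libraries with a clock time counts were lower, with the clock covariate and without it: 19 and 17 for June against May (4 and 3 at Wiesloch, 7 and 9 at Schluchsee), 33 and 31 for July against June at Wiesloch, 23 and 26 for the month by site interaction, and 0 and 0 between the sites in May. The fit of these libraries without the covariate was chosen after seeing the data. Without the 3 libraries with a higher lowest value, 2 passed for September against July at Schluchsee, 1 between the sites in June and 7 in September. With the lowest values set to 0, 1 passed between the sites in May. With 75 libraries in place of tree sums, which counts repeated samples of a tree as separate, 86 passed for provenance, 63 for site and 15 for their interaction. DESeq2 called 38 for provenance and 3 between the sites in June. Without the 6 libraries that stood apart, an alternative chosen after seeing the data, 32 passed for June against May at Schluchsee. Where a count under an alternative has no share of all contigs beside it here or above, it shows only how the number of histone contigs moved.

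Leaving out each tree in turn gave 73 to 88 contigs for July against June, 3 to 13 for June against May at Wiesloch (5 or fewer without Cameron Lake tree 12 or 16 or Salmon Arm tree 9, 11 or 12), 6 to 15 for it at Schluchsee (9 or fewer without Cameron Lake tree 9, 10, 11 or 15 or Salmon Arm tree 12, 13 or 16), 2 to 9 for September against July at Schluchsee (2 without Cameron Lake tree 15 or Salmon Arm tree 14), 2 to 5 between the sites in May, 0 to 2 in June, and 12 to 39 for provenance (39 without Salmon Arm tree 9 at Wiesloch). In these fits the dispersion trend of all libraries was kept, and comparisons within the other site were not refitted. Of 62 values of named contigs past the threshold, 41 passed under every alternative run for them and 21 did not under at least 1, none with a reversed sign. The cause of these changes was not tested. Contigs at the lowest values of the table, and the 8 to 10 libraries of a site and month, limit what could be detected.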
